A study of Homo sapiens with 6 samples.

Results

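Genes of the lysosome were examined in HK-2 cells, an immortalized human renal proximal tubular cell line, after knockdown of the chromatin remodeler INO80. The set held 46 gene symbols of the deposited table of 57905 genes: the phospholipase PLA2G15 and 45 other genes for lysosomal enzymes, their activators, lysosomal membrane proteins, sorting factors and regulators. PLA2G15 was chosen because it was lower under INO80 siRNA, so its values are a description without a test. The other 45 members were taken by their known roles, and the question was whether the lower level of PLA2G15 was shared by them. All 46 had enough reads to be tested, with mean counts between 34.2 and 43084 per library, and IDS alone had a second row in the table, with a log2 fold change of -0.23.

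There were 3 libraries labelled control siRNA and 3 labelled INO80 siRNA, all of the WT HK-2 line. A pool of siRNAs against INO80 or a non-targeting pool was delivered with a lipid reagent, and RNA was taken after 48 h. Both groups therefore carried an siRNA, and no library of untransfected cells was analysed here. The sources do not say whether the 3 libraries of a group came from separate passages, so p-values measure the spread between these libraries only. INO80 itself, the targeted gene, was at 46.3, 49.3 and 54.0 CPM (the count relative to the TMM-normalized library size) in control siRNA replicates 1, 2 and 3. The INO80 siRNA libraries held 13.8, 12 and 14.2 CPM of it, a log2 fold change of -1.90 (adjusted p = 0.000161, edgeR), and the groups did not overlap.

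Reads counted on genes ranged from 16829273 to 23784599 per library. Libraries that share a replicate number departed from their group means in the same way, and results of a second model with that number as a block are therefore printed where they alter a call. Replicate 1 stood apart from replicates 2 and 3 in both groups. Of 10 proximal tubule markers, which summed to 176 to 198 FPKM under control siRNA and 177 to 203 FPKM under INO80 siRNA, 5 had a mean FPKM of at least 1, among them PAX8, GGT1 and CDH2, while LRP2, CUBN, AQP1, SLC34A1 and ANPEP were below 0.1 FPKM in both group means. Epithelial markers summed to 378 to 414 FPKM under control siRNA and 338 to 414 FPKM under INO80 siRNA. Blood cell markers summed to 33.9 to 36.7 FPKM and 34.2 to 36.9 FPKM, nearly all of it CD74, with PTPRC and CD163 at 0. Endothelial markers reached at most 0.02 FPKM. Stromal markers summed to 5.12 to 9.73 FPKM under control siRNA and 6.12 to 11.99 FPKM under INO80 siRNA, and the part of such genes in the values below was not tested.

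Lysosomes are acidic compartments in which hydrolases break down lipids, glycans and proteins delivered by endocytosis and autophagy. Most of the soluble hydrolases are tagged with mannose 6-phosphate in the Golgi and carried onward by receptors, and many of their genes are switched on together by the transcription factors TFEB and TFE3, which bind an E-box within a motif called CLEAR. Proximal tubular cells take up filtered proteins in bulk and depend heavily on lysosomal degradation. PLA2G15 is the lysosomal phospholipase A2, which removes an acyl chain from phospholipids and can pass it to ceramide.

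PLA2G15 (ENSG00000103066) lies on the forward strand of chromosome 16 from 68279207 to 68294961 in GRCh37 coordinates. The 250 bases before its start, at chr16:68245123-68245372 in GRCh38.p14 on the forward strand (RefSeq), are shown because no other member had a log2 fold change below -0.5. Capitals mark 2 CCAAT boxes, which read ATTGG on this strand, and 4 GC boxes (GGGCGG, or CCGCCC where the box is on the other strand), the first 2 of which overlap.
PLA2G15: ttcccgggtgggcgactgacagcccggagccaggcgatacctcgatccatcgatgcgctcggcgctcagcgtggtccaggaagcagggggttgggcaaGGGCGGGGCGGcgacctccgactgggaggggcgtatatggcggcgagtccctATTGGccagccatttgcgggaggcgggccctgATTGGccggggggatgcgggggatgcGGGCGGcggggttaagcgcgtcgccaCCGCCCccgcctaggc
In windows of 250 bases before to 50 after the start, searched on both strands, a CCAAT box was in 34.6% of the 35116 RefSeq promoters and a GC box in 45.0%. Of the 33 other members with a window, 30.3% held a CCAAT box and 93.9% a GC box, and of tested genes with a window 36.5% and 70.4% did. The CCAAT boxes of PLA2G15 began 100 and 68 bases before its start. No TATA box (TATAAA) and no E-box (CACGTG) was in its window.

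PLA2G15 was measured at 62.6, 72.3 and 73.3 CPM in control siRNA replicates 1, 2 and 3, and at 34.9, 34.4 and 32.2 CPM in INO80 siRNA replicates 1, 2 and 3. Every INO80 siRNA library was below every control siRNA library, and the INO80 siRNA libraries differed from each other by less than the control libraries did. On the FPKM scale, which relates the count to exonic length and depth, PLA2G15 had a mean of 15.5 ± 1.59 (SD, n = 3) under control siRNA and of 7.60 ± 0.245 (SD, n = 3) under INO80 siRNA. Because whole cultures were measured, fewer expressing cells and less RNA per cell cannot be told apart. The fitted log2 fold change was -1.04, with a 95% interval from -1.22 to -0.86, and the fitted level under INO80 siRNA was 48.7% of the control level. Within the 3 pairs of the same replicate number the log2 differences were -0.84, -1.07 and -1.19. Of the 15343 tested genes, 68 had a lower log2 fold change than PLA2G15. An antisense gene that lies inside it, RP11-96D1.7, held at most 3 reads in any library.

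**Figure D1:**
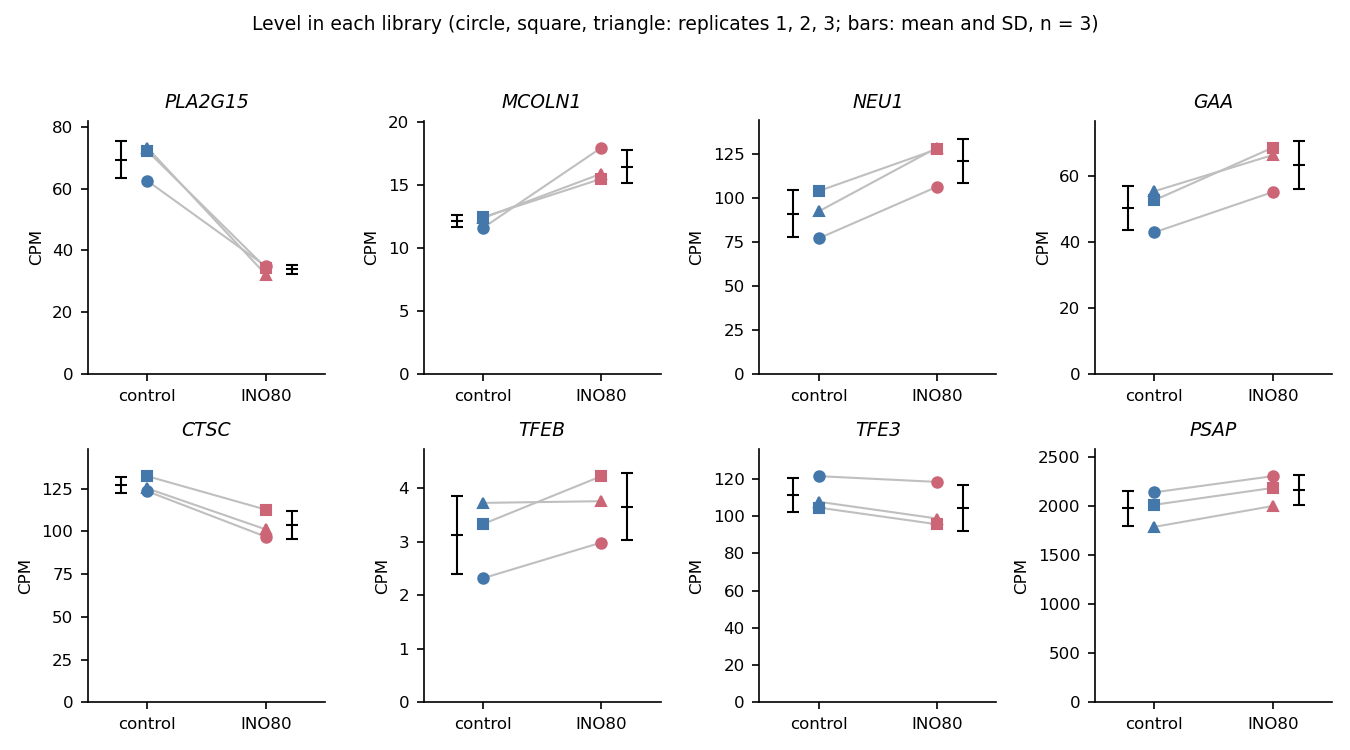
Level of 8 lysosomal members in each library, in CPM on axes that start at 0, for control siRNA (blue) and INO80 siRNA (red), with lines joining libraries of the same replicate number and bars for the mean and SD of 3 libraries. PLA2G15 was at 62.6 to 73.3 CPM against 32.2 to 34.9 CPM, while the group ranges of GAA, TFEB, TFE3 and PSAP overlapped.

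No other lysosomal member was lower by as much as PLA2G15, with treatment alone or with the replicate block. The number of members called depended on the fit. With the block 7 (15.6%) were called lower and 11 (24.4%) higher, beside 13.4% and 11.4% of all tested genes, as detailed below. Among the 45 other members, 0 were called lower and 0 higher at an adjusted p under 0.05 (edgeR, treatment alone), where 1.49% of all tested genes were called lower and 0.261% higher. At an unadjusted p under 0.05 (edgeR, treatment alone), 2 were lower and 4 were higher. Of the 15343 tested genes, 1412 were lower and 1102 higher at that threshold. DESeq2 called 1 lower and 2 higher, beside 4.58% of its tested genes in either direction. Limma called 0 members, beside 0.102% of genes with a pseudocount of 0.1 and 0.0356% with a pseudocount of 1. Their log2 fold changes ran from -0.29 (CTSC) to 0.44 (MCOLN1) with a median of 0.08, beside a median of 0.01 over all tested genes. For 35 of the 45 the log2 fold change was within 0.2 of 0.

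The intervals state what these libraries could show. All 45 of the 95% intervals lay above -1, near the log2 fold change of PLA2G15, and 43 lay above -0.5. The lowest bound was that of FUCA1, at -0.66. With the replicate block all 45 lay above -0.5. Smaller differences remain inside the intervals of most members, and 39 of the 45 intervals hold 0.

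With the replicate block, small differences in both directions passed an adjusted p of 0.05. The 7 lower members were CTSC, IDS, CTSL, SCARB2, GNPTAB, PPT1 and NPC1, which is 15.6% of the 45 beside 13.4% of all tested genes. The 11 higher members were MCOLN1, NEU1, GAA, NAGLU, GM2A, GLA, CTSD, CTSZ, PSAP, CTSB and NPC2, which is 24.4% beside 11.4% of all tested genes. DESeq2 with the same block called 10 of these 18, beside 13.9% of all its tested genes. It did not call CTSL, GLA, GM2A, GNPTAB, NAGLU, NPC1, NPC2 and PPT1, with adjusted p between 0.0673 and 0.194. Leaving replicate 3 out of the edgeR fit with the block lost 12 of the 18. Over all genes 2251 of 15409 were called there, beside 3798 of 15343 with all pairs. CTSC, CTSD, GAA, MCOLN1 and NEU1 were called in all 5 fits with a block. With treatment alone and a single library left out, the log2 fold changes of CTSC, SCARB2, MCOLN1, NEU1, GAA and GM2A stayed within 1.5 times of their value, while those of the other 12 moved further, as far as -0.0117 for GNPTAB without control siRNA replicate 1. None of the 18 reached an absolute log2 fold change of 0.5. The share of lower members was near that of all genes, and the share of higher members was above it, without a test of that difference. Shares of all tested genes are not matched for expression level anywhere in this text. Of the 45 members, 43 had a mean control FPKM of at least 1.

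Counts that need no model also held both directions. The groups did not overlap for 2 lower members, CTSC and SCARB2, which is 4.44% beside 11.5% of all tested genes. They did not overlap for 5 higher members, LAMP1, CTSB, NEU1, GM2A and MCOLN1, which is 11.1% beside 11.3% of all tested genes. Without overlap, the lower share was thus below that of all genes and the higher share near it. In 3 of 3 pairs, 10 members (22.2%) were lower, beside 25.9% of all tested genes. In 3 of 3 pairs, 20 members (44.4%) were higher, beside 26.8% of all tested genes. The median log2 difference of the 45 members was 0.03 in pair 1, 0.07 in pair 2 and 0.10 in pair 3. Summed over the 45 members, the level was 2458 to 2614 FPKM under control siRNA and 2684 to 2808 FPKM under INO80 siRNA. These sums made up 0.960% to 1.04% and 1.03% to 1.11% of all FPKM, with PSAP and CTSZ the largest parts.

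**Figure D2:**
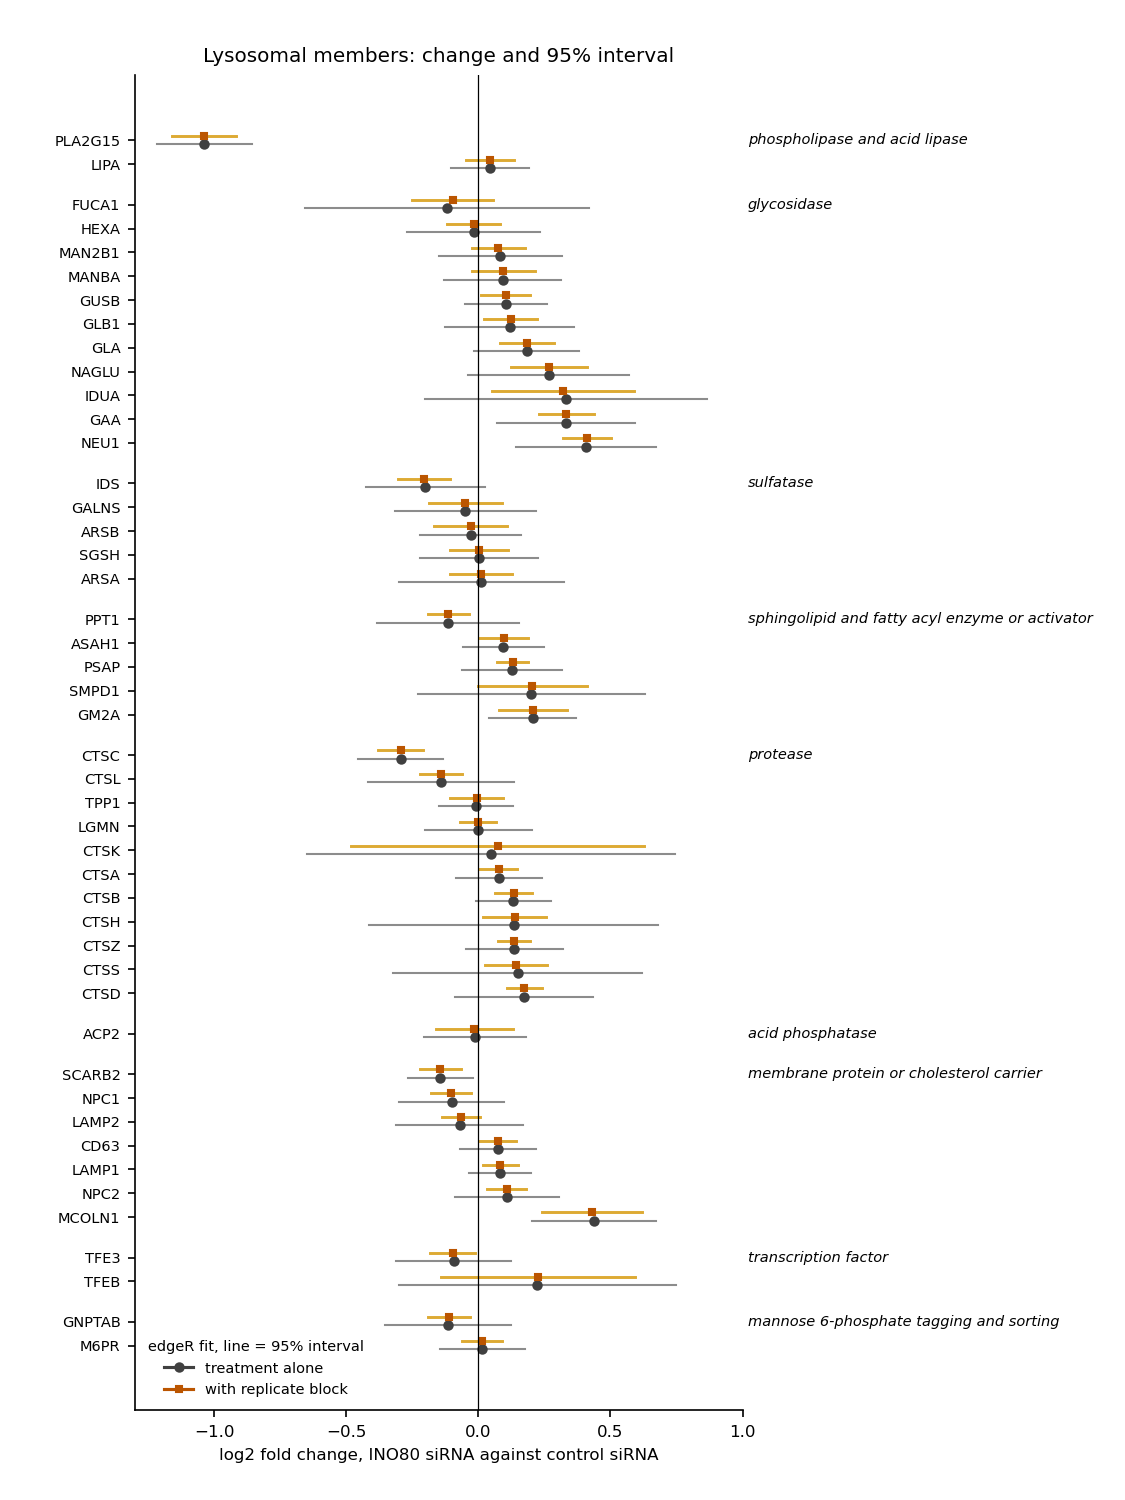
Log2 fold change of INO80 siRNA against control siRNA for the 46 lysosomal members, grouped by role, with 95% intervals from edgeR with treatment alone (grey) and with the replicate block (orange). PLA2G15 stood at -1.04, and the other 45 members lay between -0.29 and 0.44.

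Levels per exonic length spanned a wide range under control siRNA. The 3 highest members were PSAP, the precursor of the saposins that help enzymes reach their lipid substrates, CTSZ, a carboxypeptidase of the cathepsin family, and CD63, a tetraspanin of late endosomes. PSAP was at 647, 628 and 558 FPKM in control siRNA replicates 1, 2 and 3 and at 696, 689 and 632 FPKM under INO80 siRNA, and these ranges overlapped. CTSZ was at 641, 587 and 588 FPKM under control siRNA and at 716, 643 and 649 FPKM under INO80 siRNA, also with overlap. CD63 stood at 222, 239 and 219 FPKM in the controls and at 220, 257 and 244 FPKM after knockdown.

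Log2 fold changes of these abundant members were small. PSAP was at 0.13 (standard error 0.0824, adjusted p = 0.495) and CTSZ at 0.14 (standard error 0.0803, adjusted p = 0.454). With the replicate block the adjusted p was 0.00164 for PSAP and 0.00143 for CTSZ, and both were higher by 0.11 to 0.16 in every pair. Without replicate 3, the block left an adjusted p of 0.151 for PSAP and 0.0629 for CTSZ. PSAP was at 0.0553 without control siRNA replicate 3, and CTSZ at 0.0607 without INO80 siRNA replicate 1, both with treatment alone. CD63 was at 0.08 (standard error 0.0631, adjusted p = 0.619, and 0.108 with the block). PLA2G15 ranked 24 of 46 by its control level, between GLB1 (17.7 FPKM) and ARSA (14.7 FPKM), whose spreads overlap it. The 2 members under 1 FPKM were CTSK and TFEB.

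**Figure D3:**
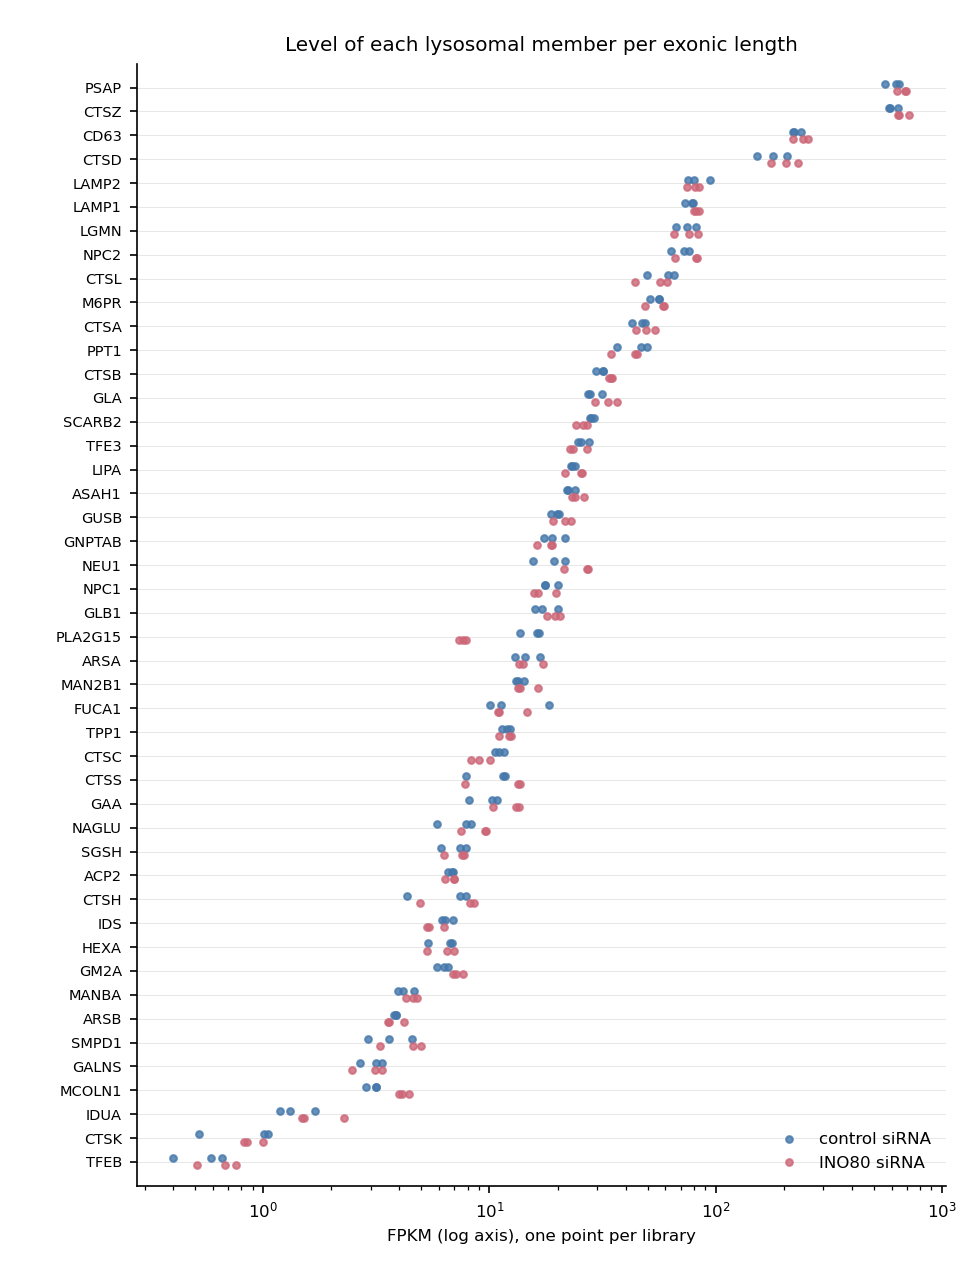
Level of each of the 46 members in FPKM on a log axis, 1 point per library, for control siRNA (blue) and INO80 siRNA (red), ordered by the control mean. Levels ran from 0.55 FPKM (TFEB) to 611 FPKM (PSAP), and the gap between the groups was widest for PLA2G15.

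Neither transcription factor was called in either edgeR fit on all 6 libraries. TFEB, the master regulator of lysosomal genes, was at 2.32, 3.33 and 3.72 CPM in control siRNA replicates 1, 2 and 3 and at 2.98, 4.22 and 3.76 CPM under INO80 siRNA, and the groups overlapped. Its log2 fold change was 0.22 (standard error 0.229, 95% interval -0.30 to 0.75, adjusted p = 0.692, and 0.392 with the block). TFE3, its close relative, was far better covered, at 121, 105 and 108 CPM under control siRNA and 118, 95.6 and 98.7 CPM under INO80 siRNA. Replicate 1 was highest in both groups, and the log2 fold change of TFE3 was -0.09 (standard error 0.0951, 95% interval -0.31 to 0.12, adjusted p = 0.687, and 0.0877 with the block). TFE3 was called lower when replicate 1 was left out of the edgeR fit with the block (adjusted p = 0.0103). RNA levels do not show how much of either factor was in the nucleus.

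Among membrane proteins, MCOLN1 had the largest difference of the 45 members. It encodes mucolipin 1, the channel that releases calcium from lysosomes, and it is a known target of TFEB. MCOLN1 was at 11.6, 12.4 and 12.4 CPM under control siRNA and at 18.0, 15.5 and 15.9 CPM under INO80 siRNA. All INO80 siRNA libraries were above all controls, and replicate 1 had the widest gap. The log2 fold change was 0.44 (standard error 0.102, 95% interval 0.20 to 0.67, adjusted p = 0.0801), and with the replicate block the adjusted p was 0.000929. Without replicate 1, the block gave a log2 fold change of 0.34 for MCOLN1.

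MCOLN1 (chromosome 19, 7587512 to 7598895, forward strand, GRCh37) overlaps the start of PNPLA6, from 7598890 to 7626650 on the same strand. PNPLA6 encodes a lysophospholipase of the endoplasmic reticulum. Its log2 fold change was 0.31 (adjusted p = 0.134, and 1.57e-05 with the block), the same direction as MCOLN1. Both genes share only the bases from 7598890 to 7598895, beside an exonic length of 3956 bases for MCOLN1. Another counted gene, CTD-2207O23.10, also overlaps MCOLN1. The part of either gene in the MCOLN1 value was not tested.

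The other membrane proteins and cholesterol carriers stayed within 0.15 of 0 on the log2 scale. SCARB2, the receptor that carries glucocerebrosidase to the lysosome, was at 162, 158 and 164 CPM under control siRNA and 142, 146 and 151 CPM under INO80 siRNA, without overlap. Its log2 fold change was -0.14 (95% interval -0.27 to -0.02, adjusted p = 0.228, and 0.00566 with the block). LAMP1 and LAMP2, the main glycoproteins of the lysosomal membrane, were at 0.08 and -0.07, and neither was called in either fit. NPC1 and NPC2 together move cholesterol out of the lysosome, and they differed in sign, at -0.10 and 0.11 (adjusted p = 0.0437 and 0.0311 with the block).

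Glycosidases, which trim sugars from glycans and glycolipids, were mostly above 0: 9 of 11 had a positive log2 fold change, 0 were called with treatment alone, and 4 (36.4%) were called higher and 0 lower with the block. Of all tested genes 51.5% had a positive log2 fold change, and with the block 11.4% were called higher and 13.4% lower. NEU1, the sialidase that removes terminal sialic acids, and GAA, the acid alpha-glucosidase that digests glycogen, had the largest differences and are given in full because of their values. NEU1 was at 77.0, 104 and 92.3 CPM under control siRNA and at 106, 128 and 129 CPM under INO80 siRNA, with no overlap and with replicate 1 lowest in both groups. Its log2 fold change was 0.41 (standard error 0.116, 95% interval 0.14 to 0.67, adjusted p = 0.130, and 1.07e-07 with the block).

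GAA was at 42.8, 52.5 and 55.2 CPM under control siRNA and at 55.0, 68.4 and 66.2 CPM under INO80 siRNA. The ranges of GAA met, since replicate 1 was lowest in both groups, but each pair was higher after knockdown. The log2 fold change was 0.33 (standard error 0.115, 95% interval 0.07 to 0.59, adjusted p = 0.196, and 1.80e-05 with the block). Without replicate 1, the block gave 0.38 for NEU1 and 0.32 for GAA.

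NAGLU, which degrades heparan sulfate, and GLA, the alpha-galactosidase deficient in Fabry disease, were the others called with the block. Their log2 fold changes were 0.27 for NAGLU (adjusted p = 0.0053 with the block) and 0.18 for GLA (adjusted p = 0.00732 with the block). DESeq2 with the block called neither (adjusted p = 0.105 for NAGLU and 0.103 for GLA). IDUA, which cleaves iduronic acid, had the same log2 fold change as GAA, 0.33, but at 1.4 FPKM its 95% interval ran from -0.20 to 0.87. GLB1, GUSB, MANBA and MAN2B1, which remove galactose, glucuronic acid and mannose, lay between 0.08 and 0.12. HEXA, a subunit of beta-hexosaminidase, was at -0.02.

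FUCA1, the fucosidase, spread widely between replicates. It was at 38.4, 23.0 and 20.5 CPM under control siRNA and 30.9, 22.3 and 22 CPM under INO80 siRNA. Replicate 1 was high in both groups, so the log2 fold change of -0.12 was small beside an interval from -0.66 to 0.42.

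The sulfatases, which remove sulfate from glycosaminoglycans and sulfatides, were near 0 or lower. IDS, the iduronate sulfatase, was at 74.3, 64.7 and 66 CPM under control siRNA and 68.1, 54.9 and 55.4 CPM under INO80 siRNA, with overlap between the groups. Its log2 fold change was -0.20 (95% interval -0.43 to 0.02, adjusted p = 0.364, and 0.00244 with the block). GALNS, ARSB, SGSH and ARSA lay between -0.05 and 0.01, and none was called in either fit. IDUA and IDS act one after the other on the same sugars, and their log2 fold changes had opposite signs.

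Enzymes and activators of sphingolipid and fatty acyl breakdown showed the same mixture. GM2A, the activator that presents ganglioside GM2 to beta-hexosaminidase, was at 0.21 (95% interval 0.04 to 0.37, adjusted p = 0.203, and 0.0165 with the block), without overlap between the groups. SMPD1, the acid sphingomyelinase, was at 0.20 and ASAH1, the acid ceramidase, at 0.09, and neither was called with all 6 libraries. PPT1, which removes palmitate from proteins, was at -0.11 (adjusted p = 0.032 with the block). GM2A overlaps CCDC69 in the annotation. Of the other members called with the block, GLA, CTSD, CTSB, IDS, GNPTAB, NPC1, NPC2 and MCOLN1 also overlap counted genes. Some members that were not called do so too, and the part of such genes in these values was not tested.

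The proteases included the lowest member. CTSC, the dipeptidyl peptidase that activates serine proteases of immune cells, was at 124, 132 and 125 CPM under control siRNA and 96.9, 113 and 101 CPM under INO80 siRNA. The groups did not overlap, and all 3 pairs were lower by 0.23 to 0.35 on the log2 scale. The log2 fold change was -0.29 (standard error 0.0706, 95% interval -0.45 to -0.13, adjusted p = 0.0883, and 5.61e-06 with the block), and without replicate 1 the block gave -0.27. CTSC is given in full because of its value.

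Other proteases split in sign. CTSL, a cysteine protease, was at -0.14 (adjusted p = 0.00768 with the block, and 0.0673 by DESeq2 with the block). It was at -0.0318 without INO80 siRNA replicate 1 and at -0.236 without control siRNA replicate 1, both with treatment alone. The aspartic protease CTSD and the cysteine proteases CTSB and CTSZ were at 0.17, 0.13 and 0.14, all called higher with the block alone. CTSD was at 469, 617 and 533 CPM under control siRNA and 540, 682 and 602 CPM under INO80 siRNA, a spread between replicates wider than the step within pairs. LGMN, TPP1, CTSK and CTSA lay between -0.01 and 0.08. CTSH and CTSS, at 0.13 and 0.15, spread widely, with replicate 1 low in both groups (26 against 46.2 and 43.3 CPM for CTSH under control siRNA).

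LIPA, the acid lipase that frees cholesterol and fatty acids from lipoproteins, is the other lipid esterase among the members. Its log2 fold change was 0.04 with a 95% interval from -0.10 to 0.19. ACP2, the acid phosphatase, was at -0.01. GNPTAB, which starts the mannose 6-phosphate tag, was at -0.11 (adjusted p = 0.0334 with the block), and M6PR, a receptor for the tag, was at 0.01.

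Replicate 1 stood apart for many of the members. It lay outside replicates 2 and 3 on the same side in both groups for 34 of the 45 members, 75.6%, where 48.9% of all tested genes did. This held for 10 of 11 glycosidases and for 10 of 11 proteases, but for 2 of 7 membrane proteins and cholesterol carriers. PLA2G15 was not among such genes, and without replicate 1 the block gave a log2 fold change of -1.13 for it. With replicate 1 left out of the blocked fit, 7 members were called lower and 18 higher, together 55.6% of the 45 beside 25.4% of all tested genes. ASAH1, CD63, CTSA, CTSS, GLB1, GUSB, LIPA and TFE3 were called in this setting alone.

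Related genes of the lysosome were taken from 8 lists of known function with 182 genes, of which 168 were tested. With treatment alone, 1 was called lower and 1 higher, 0.595% each, beside 1.49% and 0.261% of all tested genes. With the block 19 (11.3%) were lower and 35 (20.8%) were higher, beside 13.4% and 11.4% of all tested genes. HGSNAT, which acetylates heparan sulfate so that NAGLU can act, was the higher one. It was at 23.8, 18.5 and 21.8 CPM under control siRNA and 34.6, 33.5 and 32.0 CPM under INO80 siRNA, without overlap. HGSNAT rose by 0.64 on the log2 scale (standard error 0.102, adjusted p = 0.027). This call was lost in 7 of 18 alternative settings.

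CLTC, the clathrin heavy chain that coats vesicles on the route from the Golgi and the surface to endosomes, was the lower one. CLTC was at 915, 936 and 908 CPM under control siRNA and 683, 704 and 663 CPM under INO80 siRNA, far apart beside the spread within each group. It fell by 0.43 on the log2 scale (standard error 0.0524, adjusted p = 0.0101, edgeR), and this call was lost in 5 of 18 settings. The other 13 tested genes of mannose 6-phosphate sorting were not called with treatment alone.

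List medians were all within 0.18 of 0, and the counts by list are for the block, where 13.4% of all tested genes were called lower and 11.4% higher. Of the 26 tested other hydrolases, 0 were lower and 5 (19.2%) higher (median 0.10). Of the 30 other lysosomal membrane proteins, 3 (10%) were lower and 8 (26.7%) higher (median 0.06). The V-ATPase, the pump that acidifies the lysosome, had 3 lower and 3 higher of 21, 14.3% each and near the share of all genes (median -0.01), with ATP6AP1 at -0.17 (adjusted p = 0.160).

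Genes that feed the lysosome were also mixed, beside the same 13.4% and 11.4% of all tested genes. Of 31 autophagy genes, 5 (16.1%) were lower and 7 (22.6%) higher with the block (median 0.05), led by the conjugation factor ATG12 at -0.40 (adjusted p = 0.0958). Of 19 genes of mTORC1 and Ragulator, which sense amino acids on the lysosomal surface, 2 (10.5%) were lower and 6 (31.6%) higher (median 0.10), with LAMTOR2 at -0.32 (adjusted p = 0.186). Mannose 6-phosphate sorting had 4 (28.6%) lower and 0 higher of 14 (median -0.02). The tethering complex HOPS and positioning factors had 1 (6.67%) lower and 2 (13.3%) higher of 15 (median 0.02), with VPS16 at 0.19 (adjusted p = 0.228).

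No phospholipase related to PLA2G15 by activity was called with treatment alone. Of 12 tested, 1 (8.33%) was lower and 4 (33.3%) were higher with the block, beside 13.4% and 11.4% of all tested genes, and the median was 0.18. PNPLA4 had the smallest p, at -0.45 (adjusted p = 0.132, and 0.00396 with the block). LCAT, the nearest relative of PLA2G15, which forms cholesteryl esters in plasma, was at 9.94, 5.73 and 9.05 CPM under control siRNA and 10.2, 7.25 and 8.21 CPM under INO80 siRNA. The groups overlapped widely, and the log2 fold change of 0.06 (standard error 0.22) took the other sign without control siRNA replicate 2.

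**Figure D4:**
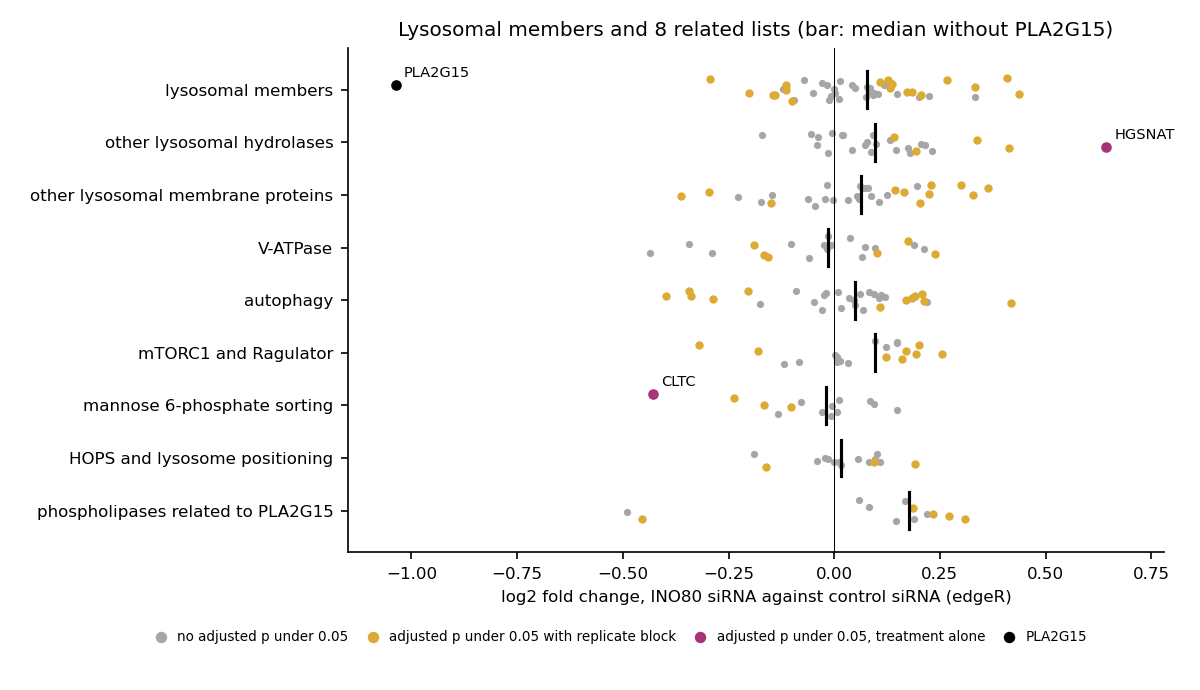
Log2 fold change of every tested gene of the lysosomal members and of 8 related lists, 1 point per gene, with a bar at the median without PLA2G15 and colours for genes called with treatment alone or with the replicate block. HGSNAT (0.64) and CLTC (-0.43) were called with treatment alone, and no gene of the 8 lists lay as low as PLA2G15 (-1.04).

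Neighbours of PLA2G15 on chromosome 16 did not share its level. ESRP2, a splicing regulator 7202 bases before it, was at -0.02 (adjusted p = 0.913), and SLC7A6, an amino acid transporter 3472 bases after it, was at -0.11 (adjusted p = 0.502). NFATC3 and DUS2, farther to the same side as ESRP2, were at 0.15 and -0.05. SLC7A6OS was at -0.38 (adjusted p = 0.2, and 0.0129 with the block) and PRMT7 at 0.24 (adjusted p = 0.233, and 0.00818 with the block), so that the 6 neighbours held both signs.

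Promoter windows in RefSeq were matched for 34 of the 46 members, and those with the CACGTG core that TFEB and TFE3 recognize are shown, since this motif is the known link between lysosomal genes. The search was chosen with the expression values known and is a description. CACGTG reads the same on both strands and was in the window of 8 of 33 members other than PLA2G15 (24.2%), in 10.2% of 10025 tested genes with a window and in 7.26% of all windows. The core is in capitals with 10 bases on each side, in GRCh38.p14 and in the direction of the gene.
MCOLN1, chr19:7522573-7522598 (forward strand): cagaggcggtCACGTGaggggctctg
MCOLN1, chr19:7522600-7522625 (forward strand): gctaccgggtCACGTGaccgaggcac
NEU1, chr6:31862932-31862957 (reverse strand): gctgcgtgatCACGTGggaggagatg
GAA, chr17:80101495-80101520 (forward strand): gaggccgcgtCACGTGacccaccgcg
GAA, chr17:80101540-80101565 (forward strand): tcccgccggtCACGTGacccgcctct
CTSD, chr11:1763959-1763984 (reverse strand): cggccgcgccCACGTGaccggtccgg
LAMP1, chr13:113297201-113297226 (forward strand): cccgcgggatCACGTGacgcccgggc
CTSA, chr20:45891300-45891325 (forward strand): cgccggagttCACGTGactcgtacac
GALNS, chr16:88856964-88856989 (reverse strand): ccccgcgagtCACGTGgccgtccagg
CD63, chr12:55729174-55729199 (reverse strand): gggtaggggcCACGTGgccctggccg

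LAMP1 held 6 copies of the core, and MCOLN1, GAA, CTSA and GALNS held 2 copies each. The median log2 fold change was 0.13 for the 8 members with the core and 0.01 for the 25 without, beside 0.02 and 0.01 for tested genes with and without it. Of the members called higher with the block, 4 of 8 that had a window held the core (MCOLN1, NEU1, GAA and CTSD), and of those called lower, 0 of 7 did. PSAP, CTSB and NAGLU, also called higher, had no window. The share with the core among all genes called with the block was not computed, so these small counts have no background. Whether the core had a part in these values was not tested. LAMP1, with the most copies, had a log2 fold change of 0.08. For 8 members with several windows the first listed was used, and counting any window gave 10 members (30.3%) beside 12.7% of tested genes.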

How the data were processed

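RNA-seq of HK-2 cells was analysed for 3 control siRNA and 3 INO80 siRNA libraries, prepared from poly(A) RNA with a directional kit and sequenced in pairs. The authors deposited 1 table with the raw count and the FPKM of each of 57905 genes per library. The submitters' processing notes name HISAT2 2.0.1, HTSeq and hg19, whereas the paper's methods name ELAND and hg38; the coordinates in the table are those of GRCh37, and no strand setting for counting is given in the sources used here, so overlapping genes could share reads. The deposited counts carry no normalization, and the deposited FPKM divide them by exonic length and library total.

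Counts were fitted in R 4.3.3 with edgeR 4.0.16 (filterByExpr, TMM normalization, quasi-likelihood test, treatment alone), with Benjamini-Hochberg adjustment over the 15343 tested genes and a threshold of 0.05 on the adjusted p. Log2 fold changes carry 95% intervals from the same fit. Library totals were 16829273, 20311588 and 19207839 reads under control siRNA and 20678008, 23762920 and 23784599 reads under INO80 siRNA, and counts of replicates differed by more than counting error. Deviations from a group mean cancel out within the group, so correlations for equal and for unequal replicate numbers depend on each other. The correlation across tested genes between deviations of libraries with the same number was 0.639, 0.446 and 0.427, against at most 0.165 for other pairs. The replicate number was therefore used as a block in a second fit. The study names no pairing, so the fit on treatment alone was kept as the main one, and calls of members depend on this choice. Genes are not independent replicates.

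The members, the lists of related genes and the tests were chosen with earlier results of these data known. By rule, INO80, PLA2G15, all members, the regulators TFEB, TFE3 and MCOLN1, the 3 most abundant members, the leading gene of each list, LCAT and the 3 nearest tested genes on each side of PLA2G15 were named. NEU1, GAA, CTSC and the members past the threshold with the block, as well as the promoter motifs, were chosen after their values were seen. Motifs were searched in RefSeq windows of 300 bases. Alternatives were no filter, a mean FPKM of at least 1, scaling by median ratio or total count, the replicate block, DESeq2 1.42.0, limma 3.58.1 on log2(FPKM + 0.1) or log2(FPKM + 1), and each library or pair left out. DESeq2 with the block was added after seeing the data. The fits were tested on simulated counts with planted changes larger than those of any member other than PLA2G15. That check does not bear on calls of small differences. The sequence reads were not analysed here. Values of a few listed genes are left out of the text.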

Additional observations from a re-analysis of the deposited data

How the results depend on the processing

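Of the 45 members other than PLA2G15, 0 were called in the fit on treatment alone, as with each library left out in turn (0 to 0). Without a filter on low counts 3 were called (CTSC lower, GAA and NEU1 higher), with DESeq2 3 (CTSC lower, MCOLN1 and NEU1 higher), with the replicate block 18 (7 lower, 11 higher), with DESeq2 and the replicate block 10 (3 lower, 7 higher), and with the block and a pair left out 6 to 25 (25 without replicate 1, 13 without replicate 2 and 6 without replicate 3). The median log2 fold change of the members, 0.078, was 0.0405 without INO80 siRNA replicate 2, 0.0405 to 0.0784 over all single libraries left out and 0.0566 to 0.104 over pairs left out. Of genes on the 8 related lists, 2 were called with treatment alone, 7 without a filter, 5 with DESeq2, 0 with limma at either pseudocount, 54 with the replicate block, 21 with DESeq2 and the block, 0 to 2 with a library left out and 25 to 66 with a pair left out under the block (66 without replicate 1, 38 without replicate 2, 25 without replicate 3). PLA2G15 kept its direction throughout, at -1.11 to -1.0 with a library left out, -1.13 to -0.96 with a pair left out and -1.04 to -0.94 otherwise. Values near 0 changed sign: DUS2 was at 0.00927 without replicate 2 under the block, ESRP2 at 9.52e-05 without INO80 siRNA replicate 1 (-0.044 to 9.52e-05 over single libraries) and at 0.000552 without replicate 1 under the block, and LCAT at -0.15 (-0.15 to 0.212 over single libraries) without control siRNA replicate 2, -0.0852 without INO80 siRNA replicate 1 and -0.0492 without replicate 2 under the block. The other 659 of 665 values for single genes kept their direction. These counts stand beside those over all tested genes. With treatment alone 268 of 15343 were called, without a filter 708 of 29137, and with DESeq2 610 of 13320. With the replicate block 3798 of 15343 were called, and with DESeq2 and the block 1691 of 12190. Under the block, 3978 of 15659 were called without replicate 1, 2623 of 15439 without replicate 2 and 2251 of 15409 without replicate 3. With a single library left out, 18 to 146 genes were called. The block takes up the spread shared by libraries of 1 number. Why the counts differed between settings was not tested. TFEB and CTSK, each under 1 FPKM, had wide intervals, with standard errors of 0.229 and 0.305 (treatment alone). FUCA1 and CTSH had standard errors of 0.235 and 0.239 at mean counts of 531 and 859. The part of depth in these widths was not tested.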
